A study of Homo sapiens with 8 samples.

Results

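The NADPH oxidase genes and the genes of their maturation partners were examined in HaCaT cells, human skin keratinocytes that became immortal spontaneously in culture. The 9 genes were chosen by symbol: the p22-phox subunit CYBA, the oxidases CYBB (NOX2), NOX1, NOX4, NOX5, DUOX1 and DUOX2, and the DUOX maturation factors DUOXA1 and DUOXA2. All 9 symbols are among the 34415 in the deposited count table. RNA was sequenced from 4 cultures transfected with an siRNA against the ETS transcription factor ETV4 (siETV4) and from 4 cultures given a negative-control siRNA (siNC). The basal glucose was 5.5 mM for both groups. Both grew in 35 mM glucose for 96 h and carried the siRNA for 48 h, at passages between 21 and 33. The comparison is thus of the siRNAs within high glucose. The submitters call the cultures independent biological replicates. All come from 1 cell line.

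NADPH oxidases are membrane proteins that carry electrons from NADPH across the membrane to oxygen and so release superoxide or hydrogen peroxide. CYBA encodes p22-phox, the membrane partner that holds NOX1, NOX2, NOX3 and NOX4 stable, while NOX5 and the dual oxidases DUOX1 and DUOX2 are switched on by calcium and do not depend on it. The dual oxidases leave the endoplasmic reticulum with the help of a DUOXA protein, typically DUOX1 with DUOXA1 and DUOX2 with DUOXA2. They release hydrogen peroxide at epithelial surfaces such as airway, gut and thyroid.

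The 4 dual oxidase genes lie side by side on chromosome 15 as a pair of head-to-head couples (RefSeq, GRCh38.p14). DUOX2 (45092650 to 45114172, minus strand) and DUOXA2 (45114326 to 45118421, plus strand) point away from each other with starts 154 bases apart, and DUOXA1 (45117366 to 45129879, minus strand) and DUOX1 (45129994 to 45165574, plus strand) do so with starts 115 bases apart. The sequences between the starts are shown because the couples share them and yet differed in level, as described below. They come from RefSeq promoter sequences, plus strand, and capitals mark GGAA, the core shared by ETS factors, or TATAAA, on either strand.
DUOX2 to DUOXA2, chr15:45114173-45114325: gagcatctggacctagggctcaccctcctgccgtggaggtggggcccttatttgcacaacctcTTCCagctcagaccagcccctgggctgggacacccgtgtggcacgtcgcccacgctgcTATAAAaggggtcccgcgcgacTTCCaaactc
DUOXA1 to DUOX1, chr15:45129880-45129993: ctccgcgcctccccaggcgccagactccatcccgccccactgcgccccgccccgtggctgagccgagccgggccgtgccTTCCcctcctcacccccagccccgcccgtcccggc
The interval between DUOX2 and DUOXA2 is 153 bases long with 63.4% G and C, and it holds 1 TATAAA, on the DUOXA2 strand, and 2 GGAA cores. The interval between DUOXA1 and DUOX1 is 114 bases long with 80.7% G and C, and it holds 1 GGAA core and 0 TATAAA. Among 27305 RefSeq promoters cut to the same length before the start, TATAAA occurs in 7.2% at 153 bases, and GGAA in 81.0% at 153 bases and 71.6% at 114 bases. The longer ETS-type words CCGGAAGT and AGGAAGT were searched on both strands and had 0 matches in both intervals, against 2.9% and 4.0% of promoters at 114 bases and 3.2% and 5.0% at 153 bases. These are matches of letters only. GENCODE v29 places the starts of DUOX2 and DUOXA2 so that 24 of their exon bases overlap.

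The first question was which of the enzymes HaCaT cells express at all. Libraries held between 35057643 and 41657753 counts. The library siNC replicate 4 stands apart from the other siNC libraries: the count of genes called over the whole table was 32 with it and 2327 without it. CYBA, DUOXA1, DUOX1 and DUOX2 passed the filter on low counts (a minimum count of 10) and were tested, and the other 5 genes did not pass it. Their levels per gene length are given in the authors' deposited FPKM, fragment counts scaled for depth and for gene length. Over the 8 libraries CYBA stood between 14.9 and 21.5 FPKM, DUOXA1 between 6.67 and 8.66 FPKM, DUOX1 between 2.08 and 3.24 FPKM and DUOX2 between 0.553 and 1.13 FPKM. DUOXA2 stood between 0.0270 and 0.166 FPKM. The ranges of these 5 genes do not overlap, so their order was the same in each of the 8 libraries, and it was also the same with CPM divided by the GENCODE v29 exon length. By mean FPKM, CYBA stood above 84.0% of the 20585 symbols with any count, DUOXA1 above 73.1%, DUOX1 above 60.6% and DUOX2 above 49.2%.

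**Figure D1:**
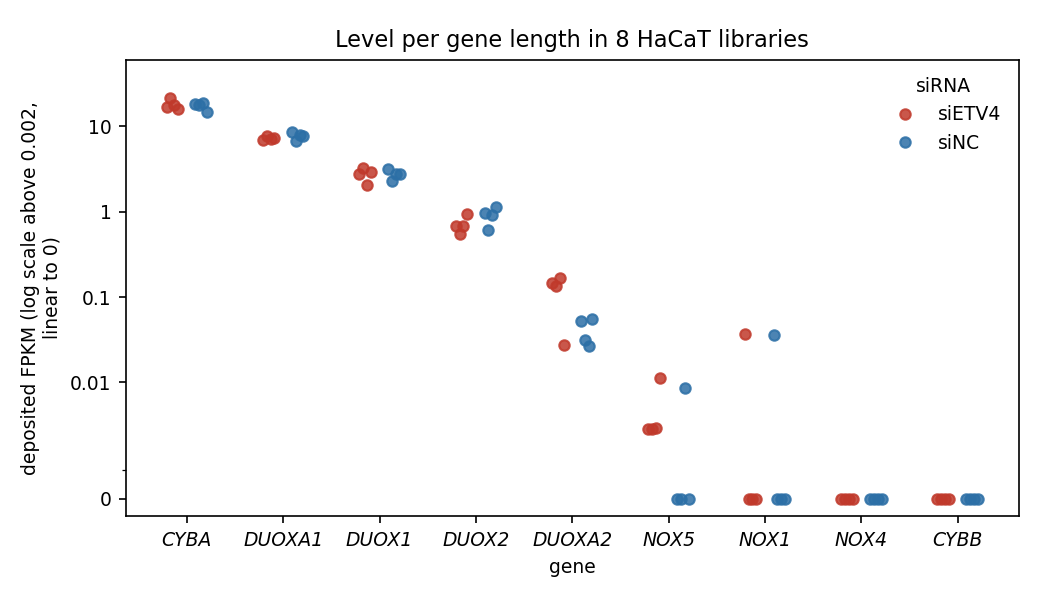
Deposited FPKM (log scale with a linear stretch to 0) of the 9 genes in the 4 siETV4 and 4 siNC libraries, 1 point a library. CYBA, DUOXA1, DUOX1 and DUOX2 keep their order from 14.9 to 21.5 FPKM down to 0.553 to 1.13 FPKM, and NOX4 and CYBB are at 0 throughout.

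The oxidases that p22-phox serves were at or near 0. CYBB, the oxidase of phagocytes, and NOX4, an oxidase that is active without cytosolic subunits, had 0 counts in all 4 siETV4 and all 4 siNC libraries. A count of 0 in 1 library allows a level of up to 3 counts, or 0.0721 to 0.0892 CPM (counts scaled to library size). This limit is for a single library and covers counting error only. The zeros in all libraries together set a lower limit, which was not computed. NOX1, best known from colon epithelium, had 4 counts in siETV4 replicate 1 and 0 in the other 3 siETV4 libraries, and 4 counts in siNC replicate 1 and 0 in the other 3 siNC libraries. NOX3, the inner ear oxidase, is not among the 9 genes and also had 0 counts. NOX5 had 1, 1, 1 and 4 counts in siETV4 replicates 1 to 4 and 0, 0, 3 and 0 counts in siNC replicates 1 to 4. NOX1 and NOX5 thus stayed at single reads in both groups, and no fold change is given for them. NOX5 shares 193 exon bases with SPESP1, which had 0 counts, and 572 with AC027088.1, both on its own strand.

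The cells carried the marks of keratinocytes and few of phagocytes, the usual home of CYBB. All 8 keratinocyte markers, among them KRT5, KRT14 and TP63, had a mean of at least 1 CPM, with a sum of 4060 to 4540 CPM in siETV4 libraries and 4350 to 4820 CPM in siNC libraries. Of the 8 phagocyte markers 0 reached a mean of 1 CPM, with a sum of 0.911 to 1.38 CPM in siETV4 libraries and 1.04 to 1.56 CPM in siNC libraries. PTPRC, FCGR1A and TYROBP were at 0 in all 8 libraries, while ITGAM reached 0.99 CPM and CD14 0.856 CPM. Fibroblast and melanocyte markers summed to at most 4.49 and 2.02 CPM in siETV4 libraries and 5.93 and 2.29 CPM in siNC libraries. Most of these sums came from COL1A1 (2.68 to 5.73 CPM) and PMEL (1.15 to 2.29 CPM), with COL1A2, LUM, MLANA and TYR at 0. Endothelial markers summed to 15.2 to 21.9 CPM in siETV4 libraries and 14 to 18.3 CPM in siNC libraries, nearly all from CDH5, while PECAM1 stayed at or below 0.0481 CPM.

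DUOX1 was the most abundant oxidase. Its deposited FPKM was 4.01, 5.85, 3.02 and 3.14 times that of DUOX2 in siETV4 replicates 1 to 4, and 3.28, 3.79, 3.01 and 2.45 times in siNC replicates 1 to 4. The groups overlapped in this ratio. The 2 oxidases are paralogs with long similar stretches, and the sources used here do not say how reads that fit both were counted. DUOXA1, the maturation factor, stood above its oxidase in every library, at 2.36 to 3.39 times the DUOX1 FPKM in siETV4 libraries and 2.72 to 2.87 times in siNC libraries. The DUOX2 couple had the opposite order: DUOXA2 stood below DUOX2 in FPKM in each of the 8 libraries.

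The second question was whether these genes differed between the siRNAs. ETV4 itself fell to 2.61 ± 0.547 CPM in siETV4 cultures, against 28.2 ± 5.64 CPM in siNC cultures (SD, n = 4 each; log2 fold change -3.43, SE 0.21, edgeR adjusted p 4.64e-05). Of the 4 tested oxidase genes, 0 had an edgeR adjusted p under 0.05, 0 had an unadjusted p under 0.05, and 0 had groups that did not overlap. Over all 13572 genes tested, 0.236% passed the adjusted threshold, 12.6% had an unadjusted p under 0.05, and 6.55% had groups that did not overlap. The absence of calls among 4 genes is near this background and is no result about them as a set. DESeq2 and limma-voom also called 0 of the 4. Their median log2 fold change was -0.09, beside -0.01 over all genes tested. Fewer cells of a kind and less RNA per cell cannot be told apart in such bulk libraries.

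**Figure D2:**
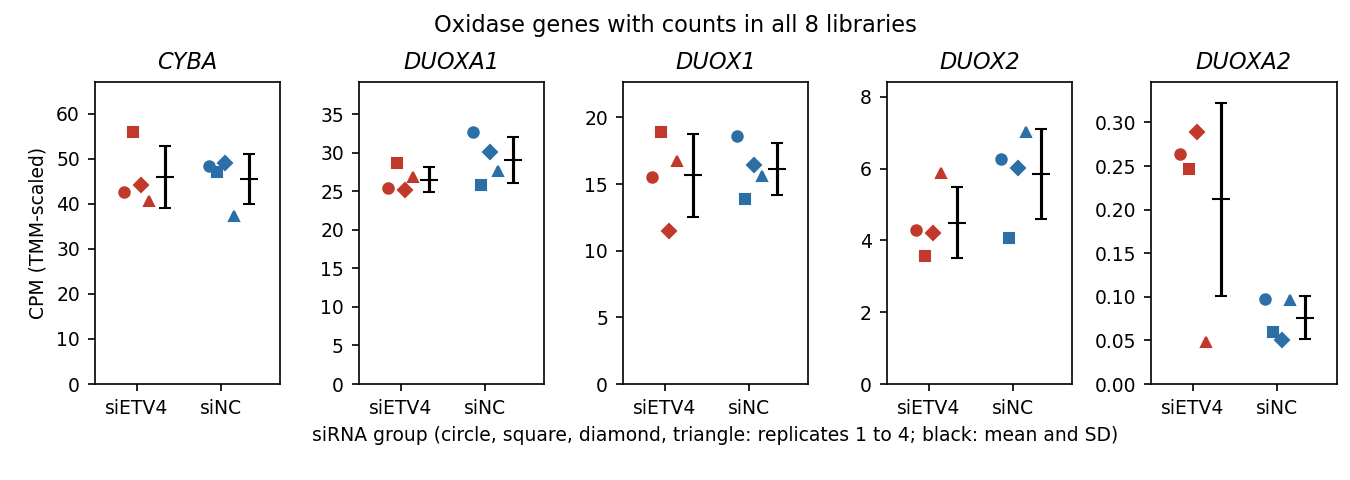
CPM (TMM-scaled) of the 5 genes with counts in all 8 libraries, each panel from 0, with siETV4 left of siNC, 1 marker shape for each replicate number and the mean and SD in black. The groups overlap in all 5 panels. In DUOXA2 siETV4 replicate 4 lies just below the lowest siNC libraries, with which it ties by count, while the other siETV4 libraries lie above all siNC libraries.

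CYBA, the p22-phox gene on chromosome 16 (88643289 to 88651053, minus strand), had 42.6, 55.9, 44.1 and 40.7 CPM in siETV4 replicates 1 to 4 and 48.3, 47.0, 49.1 and 37.2 CPM in siNC replicates 1 to 4. The highest library was siETV4 replicate 2, the lowest was siNC replicate 4, and the other 6 lay between 40.7 and 49.1 CPM. The means were 45.8 ± 6.87 CPM in siETV4 and 45.4 ± 5.55 CPM in siNC (SD, n = 4 each). The log2 fold change was 0.01 (SE 0.13, edgeR adjusted p 0.968), with a 95% interval from -0.28 to 0.31, or 0.824 to 1.24 times the siNC level.

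DUOX1 had 15.5, 18.9, 11.5 and 16.7 CPM in siETV4 replicates 1 to 4 and 18.6, 13.9, 16.4 and 15.6 CPM in siNC replicates 1 to 4. The siETV4 libraries held both the highest and the lowest value, so the siNC range lay within theirs. The log2 fold change was -0.04 (SE 0.16, edgeR adjusted p 0.922), with a 95% interval from -0.40 to 0.32. DUOXA1, which takes DUOX1 to the cell surface, had 25.4, 28.7, 25.2 and 26.8 CPM in siETV4 replicates 1 to 4 and 32.7, 25.8, 30.1 and 27.7 CPM in siNC replicates 1 to 4. The 2 highest libraries were siNC and the 2 lowest siETV4, with the others mixed. Its log2 fold change was -0.14 (SE 0.12, edgeR adjusted p 0.629), with a 95% interval from -0.39 to 0.12.

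DUOX2, which in airway epithelium is induced by interferon-gamma, had the largest difference of the 4. It had 4.28, 3.57, 4.21 and 5.89 CPM in siETV4 replicates 1 to 4 and 6.27, 4.07, 6.02 and 7.02 CPM in siNC replicates 1 to 4. Of the siNC libraries 3 lay above all siETV4 libraries, and siNC replicate 2 lay below 3 of them. The means were 4.49 ± 0.987 CPM in siETV4 and 5.85 ± 1.26 CPM in siNC (SD, n = 4 each), and the log2 fold change of -0.38 (SE 0.21) did not pass (unadjusted p 0.0958, edgeR adjusted p 0.467). The 95% interval runs from -0.85 to 0.08, or 0.556 to 1.06 times the siNC level. The log2 fold change was -0.52 without siNC replicate 2 (edgeR unadjusted p 0.0231, edgeR adjusted p 0.503). It was -0.54 without siETV4 replicate 4 (edgeR unadjusted p 0.0267, edgeR adjusted p 0.327). With any other library left out the edgeR unadjusted p lay between 0.148 and 0.22.

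DUOXA2, the partner of DUOX2, was counted in every library but at very low levels. It had 11, 10, 12 and 2 counts in siETV4 replicates 1 to 4 and 4, 2, 2 and 4 counts in siNC replicates 1 to 4, which sum to 35 in siETV4 and 12 in siNC. Of the siETV4 libraries 3 lay above all siNC libraries. In CPM siETV4 replicate 4 lay just below all of them (0.0483 CPM, against 0.0504 to 0.0976 CPM in siNC). By count it tied with siNC replicates 2 and 3, at 2 counts each. Fitted without the filter, over 20585 genes of which 0.262% were called and 9.96% had an unadjusted p under 0.05, its log2 fold change was 1.44 (SE 0.93, unadjusted p 0.129, edgeR adjusted p 0.534), with a 95% interval from -0.47 to 3.42. Of its 1760 exon bases 706 are shared with DUOXA1 on the opposite strand, and no source used here says whether the counting used strand, so there DUOXA1 reads cannot be told apart from its own.

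**Figure D3:**
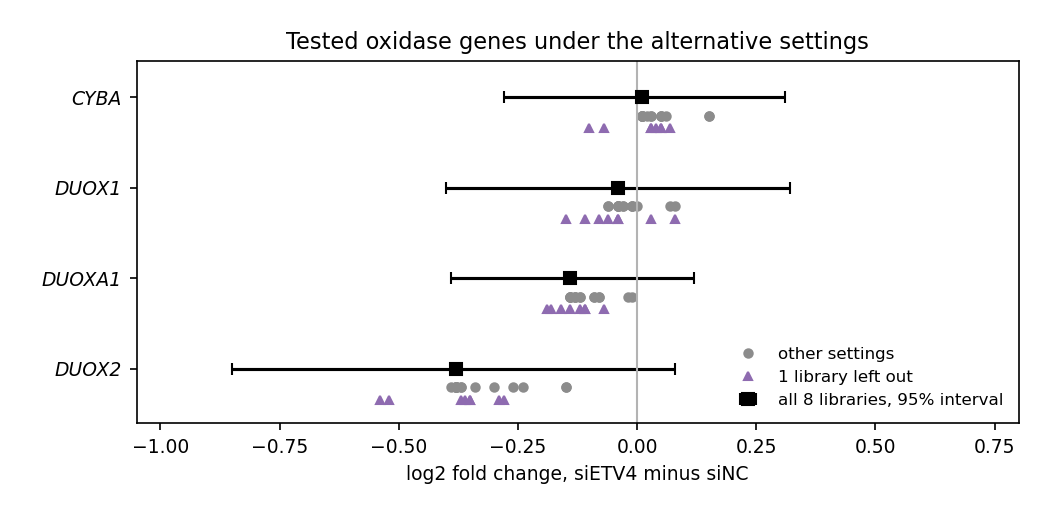
Log2 fold changes (siETV4 minus siNC) of the 4 tested genes with their 95% intervals in black, and below each the values under the other settings (grey circles) and with 1 library left out (purple triangles). All 4 intervals span 0, and DUOX2 stays between -0.54 and -0.15.

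Libraries of this series differ in how genes deviate with the GC content of their transcripts, and the tested oxidase genes are GC-rich, with 54.7% to 61.3% G and C in the longest GENCODE transcript. Spearman's rho of a library's deviation from the mean of all 8 with GC content, across 12470 genes that are not independent replicates, was -0.65, 0.21, -0.58 and 0.02 in siETV4 replicates 1 to 4 and 0.56, 0.53, 0.64 and -0.60 in siNC replicates 1 to 4. With each library's trend with GC content and length removed, the log2 fold change was 0.15 for CYBA (edgeR adjusted p 0.370), 0.08 for DUOX1 (edgeR adjusted p 0.795), -0.02 for DUOXA1 (edgeR adjusted p 0.943) and -0.26 for DUOX2 (edgeR adjusted p 0.549). The fit then called 1.76% of genes and again 0 of the 4. Without siNC replicate 4 the log2 fold changes were -0.07 for CYBA, -0.06 for DUOX1, -0.16 for DUOXA1 and -0.28 for DUOX2, with edgeR adjusted p between 0.347 and 0.819, in a fit that called 16.9% of all genes.

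The members were also set side by side across the 8 libraries. Likeness was taken as the root mean square difference of 2 log2 CPM profiles, each centred on its own mean, and is a description over 8 libraries that share their depth and GC trends. Seen from DUOX1, its head-to-head partner DUOXA1 was the 102nd most like of 13571 genes (0.150), CYBA came 2198th (0.219) and DUOX2 7534th (0.346). Seen from DUOXA1, whose profile was flatter, DUOX1 came 2267th. The genes most like each were ATP6V1E2 (0.0689), ZNF526 (0.103) and C11orf91 (0.103) for DUOX1, SAP30L (0.0377), RAPGEFL1 (0.0428) and PPIL2 (0.0432) for DUOXA1, BCL6 (0.120), NBPF1 (0.124) and SH3PXD2A (0.128) for DUOX2, and FHIP1B (0.0436), TXN2 (0.0461) and WDR4 (0.05) for CYBA.

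The genes that work with the oxidases were read from 7 lists of 75 genes in all, of which 61 were tested. Of these, 0 passed the adjusted threshold and 13 (21.3%) had an unadjusted p under 0.05, beside 12.6% of all genes tested. Their median log2 fold change was -0.05, beside -0.01 over all genes. DESeq2 called 1 of the 61 (1.64%), beside 1.64% of all genes, and limma-voom called 0, beside 0.309% of all genes.

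The list of GTPases and of organizers and activators, which assemble with the membrane oxidases, also holds other genes, among them NOX3, CYBC1, ARHGDIA and TIAM1. It gave 15 tested genes of 19 with a median log2 fold change of -0.05. The most abundant were RAC1, the GTPase of oxidase activation, with 412 ± 11.3 CPM in siETV4 and 427 ± 14.8 CPM in siNC (a log2 fold change -0.05), and ARHGDIA, which holds Rac inactive in the cytosol, with 346 ± 24.3 CPM in siETV4 and 366 ± 52.6 CPM in siNC (a log2 fold change -0.08; SD, n = 4 each). The subunits and CYBC1 were uneven in level, and some are named here after their values were seen. NOXA1, the activator of NOX1, had 3.44 CPM in siETV4 and 3.54 CPM in siNC, and CYBC1, a chaperone of the NOX2 and p22-phox pair, 44.6 CPM in siETV4 and 48.2 CPM in siNC. NOXO1, the organizer of NOX1, had 1.7 ± 0.518 CPM in siETV4 and 2.76 ± 0.489 CPM in siNC (SD, n = 4 each; log2 fold change -0.70, SE 0.27, edgeR adjusted p 0.349). NCF4 (p40-phox) had 13 counts over all 8 libraries. NCF1 (p47-phox) had 0 counts, but it has near-identical pseudogene copies, and no source used here says how reads shared with them were counted.

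**Figure D4:**
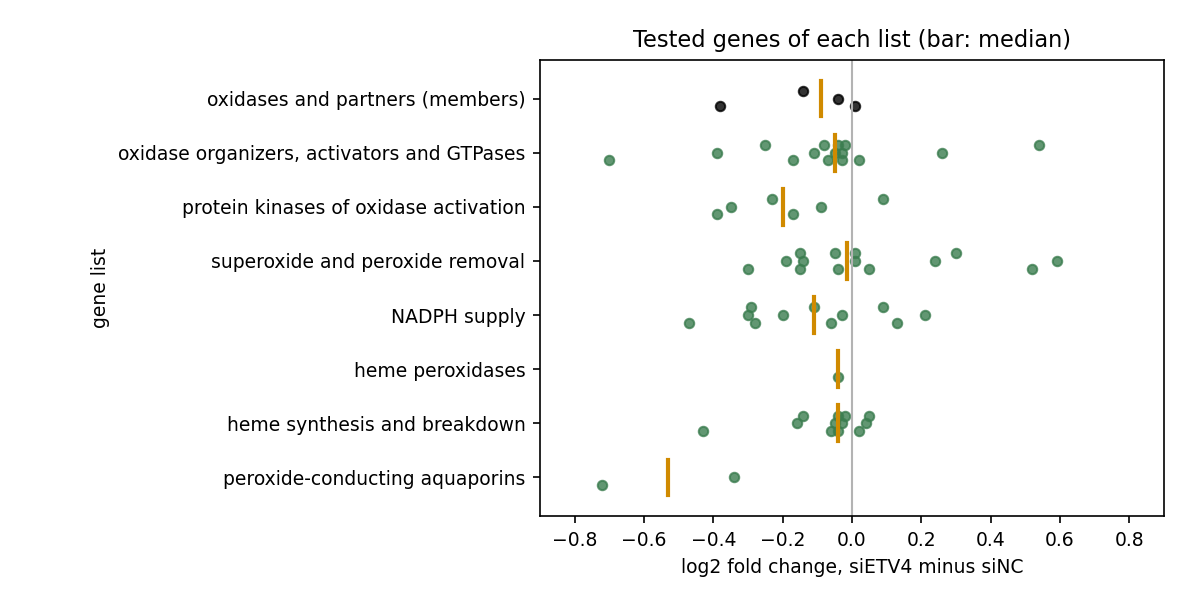
Log2 fold changes (siETV4 minus siNC) of the tested genes of each list, 1 point a gene, with the list median as a bar and the 4 tested oxidase genes in the top row. The 15 organizers, activators and GTPases run from -0.70 to 0.54 around a median of -0.05.

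Of 7 kinases that act on oxidase subunits 6 were tested, with a median log2 fold change of -0.20. SRC had 103 ± 7.75 CPM in siETV4 and 121 ± 9.64 CPM in siNC (a log2 fold change -0.23, edgeR adjusted p 0.362), and PRKCD, a protein kinase C that phosphorylates p47-phox, 11.2 ± 1.57 CPM in siETV4 and 14.7 ± 1.17 CPM in siNC (a log2 fold change -0.39, edgeR adjusted p 0.327; SD, n = 4 each). Without siNC replicate 4 SRC passed (log2 fold change -0.28, edgeR adjusted p 0.0414).

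The 11 enzymes of NADPH supply had a median log2 fold change of -0.11. TALDO1 and TKT of the pentose phosphate pathway had log2 fold changes of -0.11 and -0.29 (edgeR adjusted p 0.691 and 0.328), and TKT passed without siNC replicate 4 (log2 fold change -0.38, edgeR adjusted p 0.0149). The oxidases carry heme, and the 12 genes of heme synthesis and breakdown had a median of -0.04, with BLVRB at -0.03 and UROD at -0.16. Of the heme peroxidases, which use hydrogen peroxide, PXDN was the 1 tested (49.7 ± 6.61 CPM in siETV4 and 51.0 ± 5.96 CPM in siNC; SD, n = 4 each), and LPO, the peroxidase that works with the dual oxidases in airways, had 0 counts. Of the aquaporins that conduct hydrogen peroxide, AQP3 had 13.9 ± 0.520 CPM in siETV4 and 17.5 ± 2.65 CPM in siNC (a log2 fold change -0.34, edgeR adjusted p 0.366; SD, n = 4 each). AQP11 was near the floor, with 98 counts over all libraries, 0.237 CPM in siETV4 and 0.395 CPM in siNC (a log2 fold change -0.72, SE 0.64, edgeR adjusted p 0.643). AQP8 and AQP9 had 0 counts.

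Among 14 tested genes of superoxide and peroxide removal the median log2 fold change was -0.01, with the most abundant, TXN and PRDX1, at -0.15 and 0.01. SOD2, the mitochondrial superoxide dismutase, named here after its values were seen, had 192 ± 21.7 CPM in siETV4 and 128 ± 28.3 CPM in siNC (a log2 fold change 0.59, SE 0.14; SD, n = 4 each). It did not pass in the main edgeR fit (adjusted p 0.170), by limma-voom or with the replicate block alone, and was the 1 list gene that passed by DESeq2 (adjusted p 0.0214). With GC content and length offsets SOD2 passed by edgeR without the replicate block (log2 fold change 0.46, adjusted p 0.025) and with it (0.46, adjusted p 0.0112). These fits called 1.76% and 0.802% of all genes. TXNRD1 and PRDX6 of the same list, also named after their values were seen, passed with the offsets and no replicate block. They went opposite ways, with log2 fold changes of 0.39 and -0.42 (edgeR adjusted p 0.0499 and 0.0365). In the main fit they were at 0.52 and -0.30 (edgeR adjusted p 0.229 and 0.282). SOD2 also passed without siNC replicate 4 (log2 fold change 0.75, edgeR adjusted p 0.00219). Without siNC replicate 4, 12 of the 61 list genes passed (19.7%, beside 16.9% of all genes), 6 higher and 6 lower in siETV4, and 0 of the 4 oxidase genes.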

How the data were processed

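Total RNA of 8 HaCaT cultures was sequenced. The authors deposited raw read counts per gene symbol and FPKM values for the same symbols. Per the submitters' processing notes the build was hg38 and R 3.2.0 was used. The sources used here name no aligner, counting tool, annotation or strand setting. Groups and replicate numbers came from the titles.

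The deposited counts were tested with edgeR 4.0.16 under R 4.3.3: filterByExpr (minimum count 10; 13572 genes kept), TMM scaling, the siRNA as the only term, the quasi-likelihood test, and Benjamini-Hochberg adjustment over all genes tested, with 0.05 as threshold. Intervals are 95% intervals of the fitted coefficient. Genes below the filter were given by their counts, and DUOXA2 also by a fit without the filter. CPM use the TMM-scaled library sizes. Deposited FPKM served for levels between genes. DESeq2 1.42.0 and limma 3.58.1 were alternatives. These and the main edgeR fit were also run on simulated data, and the other settings were not. No pair of libraries agreed within sampling noise (chi-square per degree of freedom at least 10.0).

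The oxidase genes and lists were chosen with earlier results of these data known. The named genes are the 9 members, ETV4, the 3 genes most like each member of at least 1 CPM, and for each list its most significant called genes (at most 4) or else its 2 most abundant. Others are said to be chosen after their values were seen, or are given for being at or near 0 or as cell type markers.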

Additional observations from a re-analysis of the deposited data

Results flagged for a closer look

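Within a group of 4 libraries, NOX1 and NOX5 each had 1 library apart from the other 3, by the gap to the nearest library as a share of the range. For NOX1 that share was 1 in siETV4 and 1 in siNC, where replicate 1 of each group held 4 counts and the others 0. For NOX5 it was 0.992 in siETV4, where replicate 4 held 4 counts and the others 1 each, and 1 in siNC, where replicate 3 held 3 counts and the others 0. Chance flags about 1 in 20 groups of evenly spread values, and with nearly all libraries at 0 or 1 count a few reads are enough.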

How the results depend on the processing

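None of the 4 tested oxidase genes was called under any of the 23 alternatives, which were chosen with earlier results of these data known. DUOX2 ranged from -0.54 to -0.15 and DUOXA1 from -0.19 to -0.01 on the log2 scale, always lower in siETV4. The -0.15 of DUOX2 came from log2 FPKM plus 1, where the added 1 draws genes of low FPKM towards 0. With 0.1 added instead it was -0.30. CYBA (0.01) turned to between -0.10 and 0.07 with 1 library left out, negative without siETV4 replicate 2 or siNC replicate 4. DUOX1 (-0.04) lay between -0.15 and 0.08 with 1 library left out, positive without siETV4 replicate 3 or siNC replicate 1, and at 0.08 with GC content and length offsets and 0.07 with these and the replicate block. DUOXA2 ranged from 0.10 to 1.76 over 19 alternatives. The 0.10 came from log2 FPKM plus 1, where the added 1 is far above its highest level of 0.166 FPKM and sets the value near 0. The lowest value from counts was 1.13, by limma-voom.

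Over all genes, 32 were called, and 54 with no filter, 223 by DESeq2, 219 with GC content and length offsets, 59 with log2 FPKM plus 1 or plus 0.1 at a mean FPKM of at least 0.5, 60 at an adjusted p under 0.1 and 9 under 0.01. With 1 library left out the count was 9 to 16, except 2327 without siNC replicate 4. List genes called were 0 in the fit with all libraries, 1 by DESeq2, 3 with GC content and length offsets, and 1 with these and the replicate block. With 1 library left out the count of list genes was 0, except 12 without siNC replicate 4. The cause of these shifts was not tested. Same-numbered cultures did not deviate together (correlations across genes -0.09, 0.30, -0.14 and -0.19 for replicates 1 to 4; only siETV4 replicate 2 correlated best with its own number among the siNC libraries). With the replicate block 4 genes were called, and 100 with the block and the GC content and length offsets; the oxidase genes stayed at 0 calls.

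Some list genes near 0 changed sign. With GC content and length offsets, with and without the replicate block, ARHGDIA was 0.08, TALDO1 0.02, PXDN 0.10 and BLVRB 0.10. With library size alone PXDN was 0.01 and BLVRB 0.02, and on log2 FPKM plus 1 or plus 0.1 they were 0 and 0.02. With 1 library left out PRDX1 lay between -0.08 and 0.09, PXDN between -0.13 and 0.01 and BLVRB between -0.12 and 0.04.

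Single reads of NOX1 and NOX5 and the 2 to 12 of DUOXA2 limit what this depth can show.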
